A study of Homo sapiens with 24 samples.

Results

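The comparison described here is the effect of a hairpin labelled as directed against HMGA1 in growing human fibroblasts. Its members were all 12 samples, of 24 in the series, whose labels read Growing_Vector or Growing_shHMGA1, with 6 biological replicates in each group. Growing_Vector replicate 4 had a profile far from the rest of its group, so each result is given as labelled and again from the 11 libraries without it. All samples were IMR90 cells, a line of human lung fibroblasts, at passage 23-28. Every group, the growing controls included, carried retroviral ER:HRAS(G12V), an oncogenic RAS fused to the oestrogen receptor that stays inactive until 4OHT is added. Growing_Vector cells also carried the empty MSCV Vector, Growing_shHMGA1 cells carried MSCV miR30 shHMGA1, and neither group received an agent. The remaining 12 samples (RIS_Vector and RIS_shHMGA1) had the same vectors and 4OHT for 6 days, which brings about RAS-induced senescence (RIS). Only 1 hairpin and 1 cell line were used, so the effect of this hairpin cannot be told apart from that of lowering HMGA1 in general. The study's methods describe the hairpin as directed at an untranslated region of HMGA1. The target sequence printed there was matched by hand, without a check with the authors. That match placed it in a transcript of HMGA2 and in none of HMGA1 in the GENCODE annotation for GRCh37, and it is not part of the processing described below. The name of the hairpin thus rests on that description, which cites an earlier study for the hairpin, on its label and on the counts of both genes given below.

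HMGA1 is an architectural chromatin protein. Its AT-hooks bind the minor groove of AT-rich DNA, where it bends DNA, competes with linker histone H1 and helps transcription factor complexes assemble on promoters and enhancers. It is abundant in embryonic and proliferating cells, and in senescent fibroblasts it is a component of the heterochromatin foci that form after oncogenic RAS. The hairpin is made from a miR30 backbone, so it enters the microRNA pathway and lowers its target by RNA interference.

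Total counts of the 12 libraries lay between 9146636 and 23103424. In Growing_Vector replicate 4 the 10 highest genes took 18.4% of the counts, against 6.50 to 9.12% in the other vector libraries. Its root mean square distance from the rest of its group was 1.32 on the log2 scale, against 0.340 to 0.543 for the other 5 vector libraries and 0.239 to 0.327 for the hairpin libraries. It lay 0.503 from the mean of 5 RIS_Vector libraries, from which the other growing libraries lay 0.908 to 1.15. RIS_Vector replicate 2 was left out of that mean. In it the 10 highest genes took 7.03% of the counts, within the range of the other growing vector libraries, against 9.86 to 16.8% in the other RIS_Vector libraries. Levels below are counts scaled to normalised library size (CPM) and compare libraries, not genes. Fibroblast markers were present in all 12 libraries, with PDGFRA between 90.5 and 210 CPM and VIM between 3728 and 5703 CPM. Of 12 markers of epithelial, endothelial, blood and liver cells, 9 stayed under 1 CPM in every library. Their sum was 42.6 to 97.7 CPM with vector and 43.3 to 83.8 CPM with the hairpin, nearly all of it CD68, a lysosomal protein that macrophages express strongly.

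HMGA1 itself (chr6:34204650-34214008, plus strand, GRCh37) fell in hairpin cells. It had between 639 and 861 CPM in the 5 vector libraries, 667 CPM in replicate 4, and 54.4, 116 and 143 CPM as the lowest, median and highest hairpin library. The groups did not overlap with or without replicate 4, and the hairpin mean of 105 ± 41.0 CPM (SD, n = 6) was 14.6% of the mean of the 5 vector libraries, 721 ± 88.4 CPM (SD, n = 5). The log2 fold change was -2.76 as labelled (adjusted p = 1.9e-05, edgeR quasi-likelihood test with Benjamini-Hochberg adjustment over all genes, as for every adjusted p here) and -2.78 without replicate 4 (SE 0.32, adjusted p = 1.8e-05). HMGA2, the closest relative of HMGA1, had between 582 and 899 CPM in the 5 vector libraries, 573 CPM in replicate 4, and 592, 622 and 750 CPM in the hairpin libraries. These groups overlapped, and its log2 fold change of -0.15 as labelled (adjusted p = 0.73) and -0.21 without replicate 4 (SE 0.16, adjusted p = 0.38) did not pass.

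The groups also differed at the gene that gave the vector its backbone. Reads on MIR30A, whose precursor is the model for the stem and loop of miR30 cassettes, were 0 in all 6 vector libraries and 20 to 36 in the hairpin libraries, or 1.77 to 2.72 CPM. With 3 counts per library as the limit that 0 allows, the level was at least 8.85-fold higher with the hairpin. MIR30A was picked out after its values were seen. The endogenous mature products of MIR30A (RefSeq, GRCh38.p14, chr6:71403595-71403616 and chr6:71403554-71403575, minus strand) are shown because a designed hairpin takes their place in such a cassette, with the seed, bases 2 to 8, in capitals:
hsa-miR-30a-5p: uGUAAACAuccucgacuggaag
hsa-miR-30a-3p: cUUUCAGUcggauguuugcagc
Whether the reads came from the endogenous gene or from the vector was not tested. RNU6-1 (chr15:68132277-68132383, minus strand, GRCh37), a U6 small nuclear RNA of the spliceosome, was lower in hairpin cells. It had 12.3 to 20.3 CPM in the 5 vector libraries, 18.3 CPM in replicate 4, and 0.654, 1.21 and 1.6 CPM in the hairpin libraries, so its hairpin mean was 7.05% of the vector mean. The log2 fold change came to -3.83 as labelled (adjusted p = 1.6e-10) and -3.81 without replicate 4 (SE 0.22, adjusted p = 1.2e-10). U6 genes are near-identical copies and U6 RNA has no poly(A) tail, so counts in a poly(A)-selected library may be split among copies and need not follow its cellular level.

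**Figure D1:**
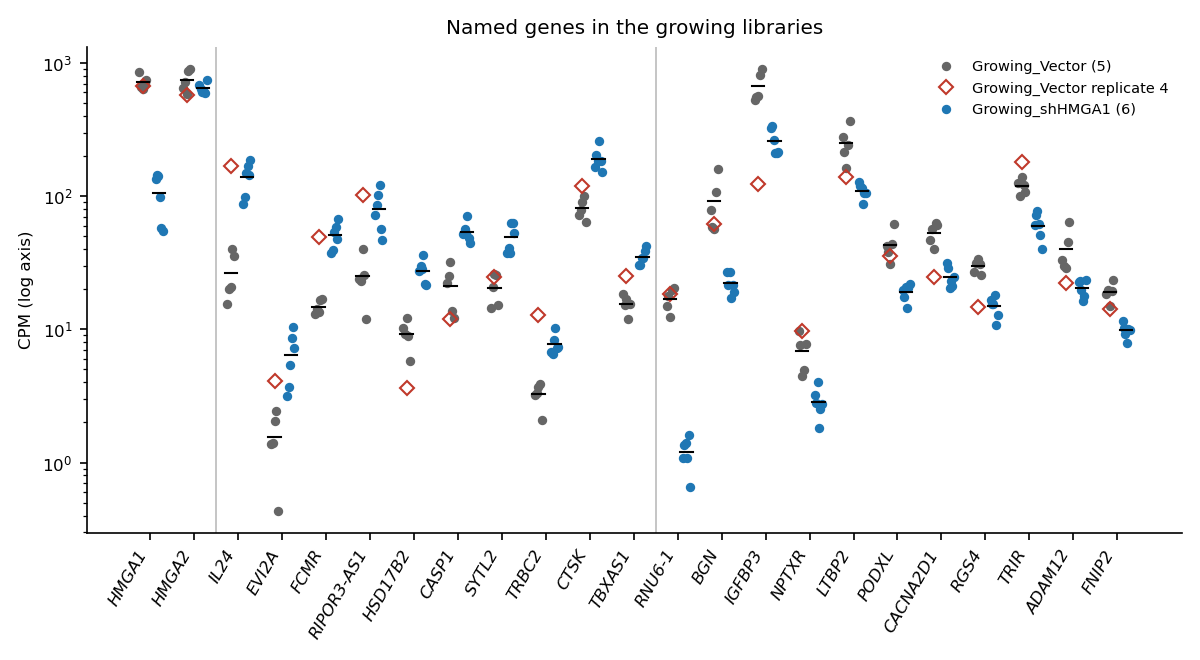
Level of HMGA1, HMGA2 and the named genes in each growing library, in CPM on a log axis; points are single libraries, short lines the means of the 5 vector and 6 hairpin libraries, and open diamonds Growing_Vector replicate 4. HMGA1 lies between 54.4 and 143 CPM in all 6 hairpin libraries and at 639 CPM or more in all vector libraries, while for IL24, FCMR and TRBC2 replicate 4 lies among or above the hairpin libraries.

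Across all genes, 36 of 13356 passed a strict rule (adjusted p under 0.01 with a log2 fold change beyond 0.58 either way) as labelled, or 0.27%, with 18 higher and 18 lower in hairpin cells. Without replicate 4 it was 67 of 13450 (0.498%), 38 higher and 29 lower. Both lists shared 30 genes, all changed in the same direction. Under a broad rule (adjusted p under 0.05, any size) 104 genes passed as labelled (0.779%), 58 higher and 46 lower, and 414 without replicate 4 (3.08%), 210 higher and 204 lower, which included all 104. At an unadjusted p under 0.05 the shares were 13.2% as labelled and 29.3% without replicate 4. In these fits all 4 groups of the series set the spread, RIS_Vector replicate 2 included. With that library also left out, 152 genes passed the broad rule as labelled in place of 104. The larger shift without Growing_Vector replicate 4 is given in the last section. When the 11 growing libraries were fitted alone, 2918 of 12991 genes passed the broad rule (22.5%), 1533 higher and 1385 lower, and 299 passed the strict rule (2.3%), 127 higher and 172 lower. With replicate 4 kept, the 12 growing libraries alone gave fewer calls than all groups together, 30 of 12894 under the broad rule (19 higher and 11 lower) and 5 under the strict rule. In that fit edgeR called 0 collagens, matrix glycoproteins, contractile genes, integrins and SASP genes of the lists below (4, 5, 0, 2 and 9 at an unadjusted p under 0.05), and 1 gene each, higher, among interferon-stimulated, inflammasome and steroid genes. Same-numbered samples were positively correlated, though often not each other's closest partner. With the number as a block 175 genes passed the broad rule as labelled in place of 104. In the 11 growing libraries the block gave 740 strict calls (5.7%), 470 higher (3.62%) and 270 lower (2.08%), in place of 299, and 3690 broad calls (28.4%), 2024 higher (15.6%) and 1666 lower (12.8%). Counts below are read against the percentage of the same fit.

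The largest increases without replicate 4 included IL24, FCMR, TRBC2 and EVI2A. IL24 (chr1:207070788-207077484, plus strand, GRCh37), a cytokine of the IL10 family, had 15.5 to 40.4 CPM in the 5 vector libraries, 167 CPM in replicate 4, and 86.8, 147 and 188 CPM in the hairpin libraries. Only replicate 4 reached the hairpin range, and the log2 fold change was 1.49 as labelled (adjusted p = 0.15) and 2.40 without it (SE 0.34, adjusted p = 0.00025). FCMR (chr1:207076662-207096592, minus strand), a receptor for the Fc part of IgM, went from 13.0 to 16.8 CPM in the 5 vector libraries, with 49.0 CPM in replicate 4, to 37.4, 50.7 and 66.8 CPM. Its log2 fold change was 1.32 as labelled (adjusted p = 0.021; 1.41 and 0.0042 with the replicate block) and 1.78 without replicate 4 (SE 0.20, adjusted p = 1.5e-05). IL24 and FCMR share 823 exonic bases on opposite strands, and since the strand setting of the counting is not given in the sources used here, their reads cannot be told apart. TRBC2, the constant segment of the T cell receptor beta chain, had 2.09 to 3.92 CPM in the 5 vector libraries, 12.9 CPM in replicate 4, and 6.57, 7.31 and 10.3 CPM in the hairpin libraries. It passed only without replicate 4 (log2 fold change 1.25, SE 0.24, adjusted p = 0.006; 0.014 with the replicate block), against 0.72 as labelled (adjusted p = 0.34). EVI2A (chr17:29643428-29648767, minus strand), a membrane protein gene that lies inside an intron of NF1, rose by 2.06 on the log2 scale without replicate 4 (SE 0.35, adjusted p = 0.0028) and by 1.76 as labelled (adjusted p = 0.021). It had 0.435 to 2.44 CPM in the 5 vector libraries, 4.12 CPM in replicate 4 and 3.15 to 10.4 CPM with the hairpin. EVI2A overlaps exons of NF1 on the opposite strand and of another gene on the same strand.

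Several genes rose alike with and without replicate 4. CASP1 (chr11:104896124-104905977, minus strand), the protease that matures IL1B in the inflammasome, had 12.2 to 31.8 CPM in the 5 vector libraries, 11.96 CPM in replicate 4, and 44.5, 52.2 and 71.5 CPM in the hairpin libraries. CASP1 rose by 1.46 as labelled (adjusted p = 0.0061) and 1.36 without replicate 4 (SE 0.26, adjusted p = 0.007). CTSK, a cysteine protease that degrades collagen, had 63.5 to 101 CPM, 120 CPM in replicate 4, and 152, 184 and 260 CPM with the hairpin, with log2 fold changes of 1.13 (adjusted p = 0.0013) and 1.24 (SE 0.17, adjusted p = 0.00019). TBXAS1, thromboxane synthase, and SYTL2, a RAB27 effector in vesicle docking, rose by 1.17 (SE 0.16, adjusted p = 0.00024) and 1.28 (SE 0.23, adjusted p = 0.0047; 0.01 with the replicate block) without replicate 4, and by 1.04 (adjusted p = 0.0029) and 1.23 (adjusted p = 0.0062) as labelled. HSD17B2, which inactivates oestradiol and testosterone, had 5.74 to 12.1 CPM, 3.60 CPM in replicate 4, and 21.4, 27.8 and 35.8 CPM with the hairpin. Its log2 fold change was 1.71 as labelled (adjusted p = 0.0061) and 1.56 without replicate 4 (SE 0.29, adjusted p = 0.0047; 0.01 with the replicate block). HSD17B2 shares 248 exonic bases with HSD17B2-AS1 on the opposite strand, and their reads cannot be told apart either. In all these genes every hairpin library lay above every vector library. RIPOR3-AS1, an antisense RNA, did not pass as labelled (1.1, adjusted p = 0.18), with 102 CPM in replicate 4 inside the hairpin range of 47.0 to 121 CPM. It rose by 1.69 without replicate 4 (SE 0.27, adjusted p = 0.0016), from 11.9 to 40.4 CPM. The other 2 of the 12 largest increases were identifiers without a symbol.

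Beside HMGA1 and RNU6-1, the largest decreases included BGN, LTBP2, IGFBP3 and ADAM12. BGN (chrX:152760438-152775004, plus strand, GRCh37), the small leucine-rich proteoglycan biglycan, had 56.7 to 161 CPM in the 5 vector libraries, 62.1 CPM in replicate 4, and 17.1, 21.6 and 27.1 CPM in the hairpin libraries. The groups did not overlap, and the log2 fold change was -1.98 as labelled (adjusted p = 1.9e-05) and -2.06 without replicate 4 (SE 0.22, adjusted p = 9.4e-06). LTBP2, an elastic fibre protein of the latent TGF-beta binding family, had 162 to 365 CPM, 138 CPM in replicate 4, and 87.5, 110 and 128 CPM, with log2 fold changes of -1.08 (adjusted p = 0.0035) and -1.19 (SE 0.16, adjusted p = 0.00024). IGFBP3, which binds insulin-like growth factors, went from 530 to 893 CPM in the 5 vector libraries to 209, 239 and 337 CPM with the hairpin. Replicate 4 lay below all of these at 123 CPM, and the log2 fold change was -1.15 as labelled (adjusted p = 0.13) and -1.37 without it (SE 0.27, adjusted p = 0.0082). ADAM12, a membrane metalloprotease, fell by 0.97 on the log2 scale without replicate 4 (SE 0.19, adjusted p = 0.0068) and by 0.86 as labelled (adjusted p = 0.036).

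The other decreases were PODXL, NPTXR, CACNA2D1, RGS4, FNIP2 and TRIR. PODXL, the sialomucin podocalyxin, had 30.7 to 61.6 CPM in the 5 vector libraries, 35.5 CPM in replicate 4, and 14.4, 20 and 22 CPM with the hairpin. It fell by 1.13 on the log2 scale as labelled (adjusted p = 0.00085) and by 1.17 without replicate 4 (SE 0.17, adjusted p = 0.00033). NPTXR, the neuronal pentraxin receptor, and CACNA2D1, an auxiliary subunit of voltage-gated calcium channels, fell by 1.28 (SE 0.23, adjusted p = 0.0038) and 1.1 (SE 0.18, adjusted p = 0.0017) without replicate 4. As labelled they fell by 1.36 (adjusted p = 0.0031) and 0.97 (adjusted p = 0.021). RGS4, which speeds up the GTPase of G protein alpha subunits, had 25.8 to 33.6 CPM in the 5 vector libraries, 14.7 CPM in replicate 4, and 10.7, 15.5 and 18.0 CPM with the hairpin. Replicate 4 thus lay among the hairpin libraries, and the log2 fold change was -0.88 as labelled (adjusted p = 0.0061; 0.016 with the replicate block) and -1.0 without it (SE 0.13, adjusted p = 0.00011). FNIP2, a folliculin partner in nutrient signalling, fell by 0.90 as labelled (adjusted p = 0.0017) and 0.96 without replicate 4 (SE 0.14, adjusted p = 0.00034). TRIR, an exoribonuclease that interacts with telomerase RNA, had 99.9 to 139 CPM in the 5 vector libraries, 181 CPM in replicate 4 and 39.8, 61.0 and 76.9 CPM with the hairpin, and its log2 fold changes were -1.1 (adjusted p = 0.0037) and -0.98 (SE 0.18, adjusted p = 0.0047).

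Matrix and contractile genes lay lower with the hairpin as whole lists, although few members passed when all groups set the spread. Over all genes tested the median log2 fold change was -0.033 as labelled and -0.0004 without replicate 4, and 44.5 and 49.9% of genes lay above 0. The median of the 36 matrix glycoproteins tested was -0.32 as labelled and -0.51 without replicate 4, with 33 of 36 below 0. In that fit 3 of the 36 fell under the broad rule (1.52% of all genes did), and in the 11 growing libraries alone 22 of 36 (10.7% of all genes). Beside LTBP2 these 3 were FN1, fibronectin, and THBS2, thrombospondin 2. FN1 had 4096 to 11223 CPM in the 5 vector libraries, 843 CPM in replicate 4, and 2066, 3023 and 3453 CPM with the hairpin, and its log2 fold change was -1.01 as labelled (adjusted p = 0.29) and -1.23 without replicate 4 (SE 0.34, adjusted p = 0.046). For THBS2 the values were -1.01 (adjusted p = 0.13; 0.034 with the replicate block) and -1.15 (SE 0.28, adjusted p = 0.029).

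Of the 25 collagen chains tested, 23 lay below 0 without replicate 4, with a median of -0.59 (-0.36 as labelled), yet 0 passed the broad rule by edgeR in either fit. Without replicate 4, 8 had an unadjusted p under 0.05, and 2 passed by DESeq2 and 16 by voom (2, 0 and 11 as labelled). In the 11 growing libraries alone 13 fell and 1 rose (10.7 and 11.8% of all genes). COL1A1, the main chain of type I collagen, had 10960 to 23307 CPM in the 5 vector libraries, 712 CPM in replicate 4, and 5256, 7869 and 8837 CPM with the hairpin. The 5 vector and 6 hairpin libraries did not overlap, and the log2 fold change of -1.11 had an SE of 0.49 and an adjusted p of 0.15 when all groups set the spread, and an adjusted p of 0.0026 in the 11 growing libraries. COL1A2 followed with -0.87 (adjusted p = 0.24, and 0.0058 in the growing libraries), and its hairpin range of 2924 to 4478 CPM lay under the 4931 to 9461 CPM of the 5 vector libraries. COL5A3 and COL16A1, minor fibrillar and fibril-associated chains, had -1.41 (adjusted p = 0.067) and -0.93 (adjusted p = 0.072). COL11A1 and COL5A1 had -0.97 (adjusted p = 0.084) and -1.13 (adjusted p = 0.1).

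Proteoglycans did not move one way. Of 23 tested, 1 rose and 1 fell without replicate 4, and 4 rose and 8 fell in the 11 growing libraries alone. Of all genes 1.56% rose and 1.52% fell without replicate 4, and 11.8 and 10.7% in the 11 growing libraries. Beside the fall of BGN stood a rise of its relative LUM, lumican, which had 77.6 to 158 CPM in the 5 vector libraries, 39.6 CPM in replicate 4, and 178, 236 and 351 CPM with the hairpin. LUM had a log2 fold change of 1.32 as labelled (adjusted p = 0.026) and 1.16 without replicate 4 (SE 0.26, adjusted p = 0.02). DCN, decorin, another of this family, did not pass (0.84, SE 0.24, adjusted p = 0.057), though its 295 to 386 CPM with the hairpin lay above the 113 to 286 CPM of the 5 vector libraries.

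Of 15 integrins 14 lay below 0 without replicate 4 (median -0.32), and ITGA5, the fibronectin receptor subunit, fell (-0.66, SE 0.15, adjusted p = 0.017), from 701 to 1049 CPM in the 5 vector libraries to 476, 539 and 650 CPM, with 406 CPM in replicate 4. Contractile genes and targets of SRF had a median of -0.43, with 22 of 24 below 0. By edgeR 0 of the 24 passed when all groups set the spread (8 at an unadjusted p under 0.05, 2 by DESeq2 and 16 by voom without replicate 4). In the 11 growing libraries 12 fell, where 10.7% of all genes did. Among these by edgeR were ACTA2, smooth muscle actin, with -0.71 (adjusted p = 0.35, and 0.021 in the growing libraries), and MYOCD, the cardiac and smooth muscle coactivator myocardin, with -0.94 (adjusted p = 0.17, and 0.0067). The centred median of the collagens was -0.45 to 0.46 in the 5 vector libraries and -0.74 to -0.37 in the hairpin libraries, so that list overlapped between groups, as did the contractile genes (-0.30 to 0.23 against -0.62 to -0.11), whereas the matrix glycoproteins (-0.18 to 0.20 against -0.73 to -0.33) and integrins (-0.12 to 0.13 against -0.52 to -0.17) did not. Replicate 4 lay below all hairpin libraries in each of these lists, at -2.76 for collagens.

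**Figure D2:**
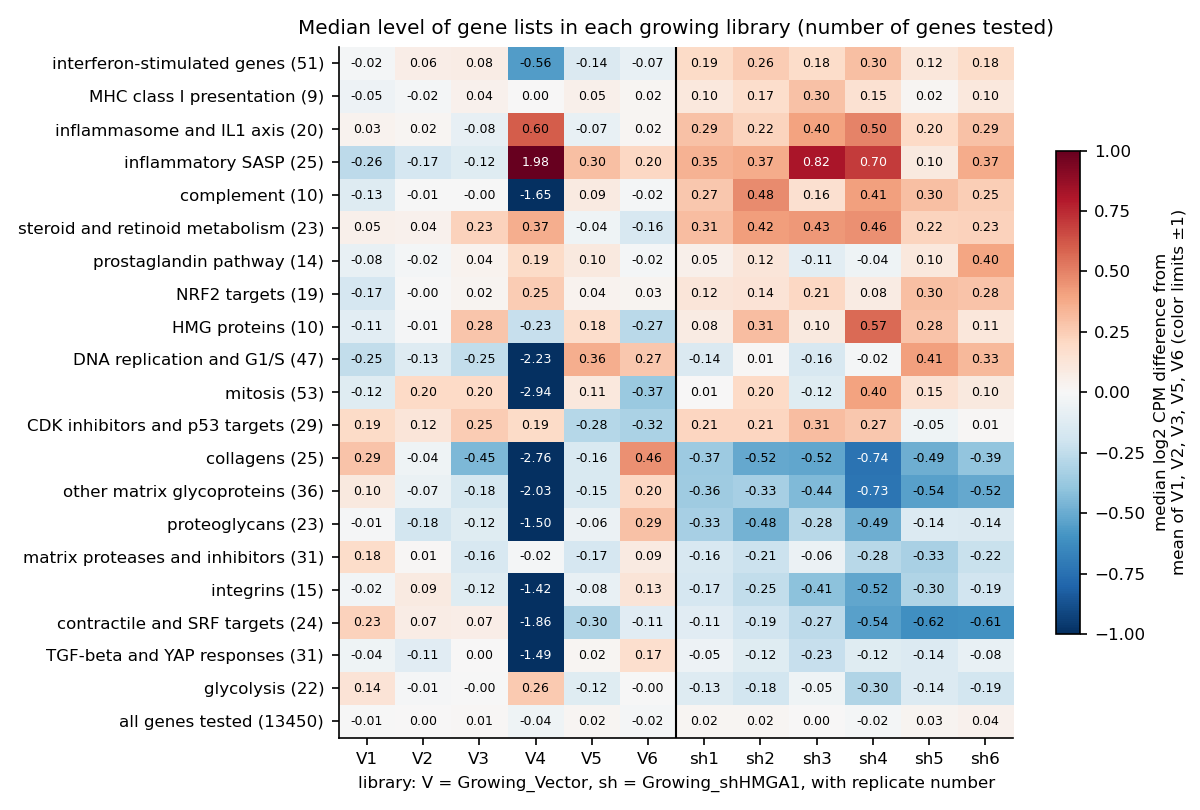
Median log2 CPM difference of the tested members of each gene list from the mean of the 5 vector libraries other than replicate 4, for each growing library (columns, V for Growing_Vector and sh for Growing_shHMGA1); the colour scale stops at 1 in each direction. Collagens, matrix glycoproteins and integrins are blue (lower) in all hairpin libraries, interferon-stimulated, inflammasome and steroid genes red (higher), and replicate 4 of the vector stands far outside in most lists (-2.76 for collagens, 1.98 for inflammatory SASP genes).

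Inflammatory genes gave an answer that turned on replicate 4. The 25 inflammatory genes of the senescence-associated secretory phenotype (SASP) had a median of -0.29 as labelled, with 19 below 0, and of 0.36 without replicate 4, with 21 above 0. Between libraries the centred median was -0.26 to 0.30 in the 5 vector libraries, 0.10 to 0.82 with the hairpin and 1.98 in replicate 4, so the groups overlapped. As labelled 0 passed the broad rule by edgeR (8 at an unadjusted p under 0.05, 2 by DESeq2 and 11 by voom). Without replicate 4 the chemokines CCL2 and CXCL6 rose, 2 of 25 (1.56% of all genes rose), and in the 11 growing libraries alone 9 of 24 rose and 1 fell (11.8 and 10.7% of all genes). CCL2, which attracts monocytes, had 8.65 to 13.9 CPM in the 5 vector libraries, 32.0 CPM in replicate 4, and 20.6, 30.8 and 39.2 CPM with the hairpin, with a log2 fold change of 1.02 as labelled (adjusted p = 0.2) and 1.39 without replicate 4 (SE 0.32, adjusted p = 0.023; 0.0076 with the replicate block). CXCL6, a neutrophil attractant, had 0.93 (SE 0.26, adjusted p = 0.046; 0.061 with the replicate block) and its groups overlapped. CXCL3, its relative, had 4.24 to 9.14 CPM in the 5 vector libraries, 952 CPM in replicate 4, and 9.81, 21.0 and 34.7 CPM with the hairpin, and its log2 fold change was -2.94 as labelled (adjusted p = 0.27; -0.03 and 0.99 with the replicate block) and 1.78 without replicate 4 (SE 0.63, adjusted p = 0.096). For IL6, a main SASP cytokine, the values were -0.08 (adjusted p = 0.97; 0.32 and 0.76 with the replicate block) and 0.90 (SE 0.35, adjusted p = 0.12), with 277 to 840 CPM in the 5 vector libraries, 3396 CPM in replicate 4, and 665 to 1233 CPM with the hairpin. CXCL8 had 50421 CPM in replicate 4 against 1248 to 7332 CPM in the other vector libraries and 5599 to 9692 CPM with the hairpin. Its log2 fold change was -0.69 as labelled (adjusted p = 0.72), 0.20 as labelled with the replicate block (adjusted p = 0.91) and 1.05 without replicate 4 (adjusted p = 0.16).

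The inflammasome and IL1 axis held 3 rises among 20 genes tested without replicate 4 and 2 as labelled (1.56 and 0.434% of all genes rose). Beside CASP1 these were IL1RL1, the receptor for IL33, which rose in both fits (1.71, adjusted p = 0.034, and 1.66, SE 0.40, adjusted p = 0.028; 0.0049 and 0.0072 with the replicate block), and IL1R1, the signalling receptor for IL1. IL1R1 had 37.5 to 45.1 CPM in the 5 vector libraries, 58.9 CPM in replicate 4, and 51.5, 56.9 and 63.0 CPM with the hairpin, with 0.35 as labelled (adjusted p = 0.14) and 0.44 without replicate 4 (SE 0.10, adjusted p = 0.017). The cytokines IL1A and IL1B did not pass: without replicate 4 IL1A had 0.68 (SE 0.40, adjusted p = 0.25) and IL1B 0.74 (SE 0.45, adjusted p = 0.27), and as labelled both were negative. IL1B had 19328 CPM in replicate 4, against 336 to 883 CPM in the other vector libraries and 627 to 1418 CPM with the hairpin. PTGS2, the inducible cyclooxygenase, had -0.41 as labelled (adjusted p = 0.84; 0.46 and 0.74 with the replicate block) and 1.42 without replicate 4 (SE 0.40, adjusted p = 0.052). PLA2G4A, the phospholipase that releases arachidonic acid for it, rose without replicate 4 (1.40, SE 0.33, adjusted p = 0.024) from 6.90 to 16.3 CPM to 21.7, 29.4 and 38.8 CPM, with 82.8 CPM in replicate 4, and not as labelled (0.37, adjusted p = 0.79).

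Interferon-stimulated genes, whose products limit viral replication, rose in small number and by small amounts. The median of the 51 tested was 0.23 as labelled, with 41 above 0, and 0.14 without replicate 4, with 40 above 0. The centred median of the list was -0.14 to 0.08 in the 5 vector libraries, -0.56 in replicate 4 and 0.12 to 0.30 in the hairpin libraries, which all lay above the vector libraries. Without replicate 4, 5 of 51 rose and 0 fell under the broad rule by edgeR, and 2 rose as labelled, where 0.434% of all genes did (5 with the replicate block). In the 11 growing libraries alone 11 of 49 rose and 1 fell, beside 11.8 and 10.7% of all genes. IFI44, a cytoplasmic protein induced by type I interferon, had 3.69 to 7.43 CPM in the 5 vector libraries, 4.12 CPM in replicate 4, and 9.96, 12.5 and 16.0 CPM with the hairpin. Its log2 fold change was 1.23 as labelled (adjusted p = 0.0035) and 1.17 without replicate 4 (SE 0.21, adjusted p = 0.0046; 0.01 with the replicate block). TRIM21, a ubiquitin ligase that binds antibody inside cells, had 19.7 to 26.1 CPM, 23.4 CPM in replicate 4, and 28.1, 29.7 and 34.2 CPM, with 0.42 (adjusted p = 0.022) and 0.43 (SE 0.10, adjusted p = 0.019). For both genes all hairpin libraries lay above all vector libraries. IFIT3 (0.56, SE 0.15, adjusted p = 0.043; 0.042 as labelled with the replicate block), PLSCR1 (0.72, SE 0.20, adjusted p = 0.045; 0.066 with the block) and UBE2L6, the conjugating enzyme for ISG15 (0.63, SE 0.17, adjusted p = 0.048), passed only without replicate 4 in the fits without a block, and their groups overlapped. The DNA-sensing adaptor STING1 fell instead without replicate 4 (-0.58, SE 0.13, adjusted p = 0.018), though as labelled it passed only with the replicate block (-0.53, adjusted p = 0.052; 0.042 with the block). It went from 59.8 to 77.3 CPM in the 5 vector libraries to 40.0, 45.3 and 50.5 CPM with the hairpin, with 53.6 CPM in replicate 4.

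The promoters of most interferon-stimulated genes carry the interferon-stimulated response element, bound by STAT and IRF factors. The letters GAAA, any 2 bases and GAAA again were searched on both strands from 250 bases before to 50 after each RefSeq start site (GRCh38.p14). They were found in 28 of the 41 interferon-stimulated genes with a promoter in the table (68.3%), against 996 of all 27305 promoters (3.65%). Of the 5 that rose, 4 held the letters. Windows of 30 bases are shown with the match in capitals, for IFI44 (chr1:78649761-78649790, minus strand, centred at -13 from the start site), TRIM21 (chr11:4393666-4393695, minus, 22), IFIT3 (chr10:89327865-89327894, minus, -117) and PLSCR1 (chr3:146544667-146544696, minus, -74), because these are the rising genes that have one:
IFI44: tcagagaaagGAAACTGAAActcagtgtgc
TRIM21: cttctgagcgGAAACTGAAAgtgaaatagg
IFIT3: gaggaaactgGAAAGTGAAActaatttaaa
PLSCR1: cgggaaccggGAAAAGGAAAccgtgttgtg
TRIM21 and IFIT3 each held a second match, which in TRIM21 overlaps the one shown. Only 161 of the 210 genes that rose and 148 of the 204 that fell had a promoter in the table, under 80%, so a comparison of motif or GC shares over called genes is void.

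MHC class I presentation had 2 rises among 9 genes tested, both only without replicate 4 (1.56% of all genes rose). B2M, the light chain of MHC class I, had 886 to 1852 CPM in the 5 vector libraries, 4042 CPM in replicate 4, and 2201, 2427 and 3641 CPM with the hairpin. Its log2 fold change was 0.54 as labelled (adjusted p = 0.48) and 0.98 without replicate 4 (SE 0.26, adjusted p = 0.04). PSMB10, an immunoproteasome subunit, had 0.56 (SE 0.15, adjusted p = 0.04).

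Enzymes of steroid and retinoid metabolism held 5 rises among 23 genes tested without replicate 4, 2 as labelled, and 8 of 22 in the 11 growing libraries, with 0 falls in each by edgeR. HSD17B2, described above, was joined by AKR1C1 and AKR1C2, aldo-keto reductases that reduce steroids. AKR1C1 had 1.65 to 4.20 CPM in the 5 vector libraries, 13.1 CPM in replicate 4, and 5.15, 10.5 and 12.6 CPM with the hairpin, with 1.03 as labelled (adjusted p = 0.28) and 1.6 without replicate 4 (SE 0.35, adjusted p = 0.017). AKR1C2 had 1.46 (SE 0.33, adjusted p = 0.018), against 1.26 as labelled (adjusted p = 0.067; 0.019 with the replicate block), and since these genes are near-identical, reads may have been split between them. HSD11B1, which regenerates cortisol, had 1.89 without replicate 4 (SE 0.45, adjusted p = 0.025; 0.0099 with the replicate block) and 12.2 CPM in replicate 4, above the 2.03 to 8.37 CPM of the hairpin libraries. ALDH1A3, which makes retinoic acid, passed in both fits (0.59, adjusted p = 0.046, and 0.58, SE 0.15, adjusted p = 0.037) and in neither with the replicate block (adjusted p = 0.059 and 0.051).

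Stress and nutrient genes changed singly. NQO1, a quinone reductase and target of NRF2, rose in both fits (0.70, adjusted p = 0.0082, and 0.69, SE 0.14, adjusted p = 0.0088), from 211 to 304 CPM in the 5 vector libraries and 237 CPM in replicate 4 to 341, 388 and 469 CPM, while GSR, glutathione reductase, fell by 0.33 on the log2 scale without replicate 4 (SE 0.09, adjusted p = 0.042; 0.059 with the replicate block). ATF3, a stress-induced transcription factor, rose without replicate 4 (1.00, SE 0.18, adjusted p = 0.0049) and not as labelled (0.55, adjusted p = 0.39), with 46.0 CPM in replicate 4 above the 20.7 to 36.2 CPM of the hairpin libraries. SLC7A5, a transporter of large amino acids, fell without replicate 4 (-1.03, SE 0.24, adjusted p = 0.023). Of 22 glycolysis genes 17 lay below 0 (median -0.21), and SLC2A3, the glucose transporter GLUT3, fell in both fits (-0.43, adjusted p = 0.016, and -0.46, SE 0.09, adjusted p = 0.0092), from 37.8 to 48.1 CPM to 25.2, 30.5 and 34.7 CPM. HK1, hexokinase 1, fell without replicate 4 (-0.42, SE 0.11, adjusted p = 0.043; 0.057 with the replicate block).

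Cell cycle genes did not pass by edgeR when all groups set the spread. Without replicate 4 the 53 mitosis genes had a median of 0.11 and the 47 DNA replication genes of 0.09, against 0.32 and 0.24 as labelled. There were 0 calls under the broad rule by edgeR in either fit, and 5 and 3 in the 11 growing libraries, where 22.5% of all genes passed. Without replicate 4 the mitosis and replication lists held 1 and 3 genes at an unadjusted p under 0.05, 1 each by DESeq2, and 18 and 17 by voom. MKI67, the proliferation antigen, had 87.6 to 152 CPM in the 5 vector libraries, 3.73 CPM in replicate 4, and 70.8, 90.7 and 97.1 CPM with the hairpin, so the groups overlapped and only replicate 4 lay near 0. Its log2 fold change was -0.12 as labelled, 0.20 as labelled with the replicate block and -0.37 without replicate 4 (adjusted p = 0.97, 0.91 and 0.72). CDKN2A, which encodes p16, had 4.00 to 4.53 CPM in the 5 vector libraries, 17.9 CPM in replicate 4, and 5.06, 5.88 and 9.72 CPM with the hairpin. It did not pass (0.69, SE 0.26, adjusted p = 0.1, and 0.02 in the 11 growing libraries). CDKN1A, which encodes p21, had 492 to 1239 CPM in the 5 vector libraries and 499 to 1095 CPM with the hairpin (-0.16, SE 0.24, adjusted p = 0.67). Of 7 linker histones, which compete with HMGA1 for DNA, only 3 were tested. H1-2 rose without replicate 4 (1.14, SE 0.28, adjusted p = 0.03, and 0.0024 with the replicate block), with overlapping groups. As labelled it passed only with the replicate block (0.86, adjusted p = 0.21, and 0.016 with the block).

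In the growth factor and receptor lists, the EGFR ligand AREG rose without replicate 4 (1.36, SE 0.28, adjusted p = 0.011), from 1.22 to 2.35 CPM to 3.4, 3.91 and 6.66 CPM, with 10.4 CPM in replicate 4. The receptor NOTCH1 fell (-0.82, SE 0.22, adjusted p = 0.04), from 21.0 to 37.2 CPM in the 5 vector libraries to 14.04, 17.1 and 19.99 CPM, with 15.8 CPM in replicate 4. Neither passed as labelled (adjusted p = 0.59 and 0.16). HSD17B7 was the 1 call among 27 cholesterol synthesis genes (0.77, SE 0.21, adjusted p = 0.048; 0.059 with the replicate block), and IGFBP3 the 1 among 31 genes of the TGF-beta and YAP responses. Lists of lung fibroblast transcription factors (27 tested), Wnt genes (20), complement (10) and small RNA processing (14) had 0 calls without replicate 4 by edgeR, and 2, 2, 3 and 3 in the 11 growing libraries. Of all genes 3.08 and 22.5% passed in these fits. At an unadjusted p under 0.05 these lists held 5, 2, 4 and 5 genes, by DESeq2 0, 1, 0 and 0, and by voom 9, 4, 6 and 7.

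The size of the change also moved with transcript length. Without replicate 4, genes in the shortest of 4 equal classes of canonical transcripts (up to 2076 bases) had a median log2 fold change of 0.27, those in the next classes 0.03 and -0.09, and those in the longest class (5276 bases or more) -0.20. Across 10554 genes Spearman's rho was -0.477, given as a description since genes share libraries and are not independent. The shortest class held 71 genes that rose and 4 that fell under the broad rule, and the longest 19 and 91. The median transcript length was 2522 bases for the genes that rose, 5307 bases for those that fell and 3301 bases for all. Among the lists, the median was 6207 bases for collagens, 5941 for integrins and 4570 for other matrix glycoproteins. It was 3754 bases for contractile genes, 3719 for proteoglycans, 3156 for matrix proteases and inhibitors, and 1642 for SASP genes. Between libraries, the longest class minus the shortest was -0.435 to 0.374 in the 5 vector libraries, -1.35 in replicate 4 and -0.705 to -0.227 with the hairpin, so the groups overlapped. With each library corrected for length, a setting added after the data were seen, the list medians without replicate 4 were -0.39 for collagens, -0.43 for matrix glycoproteins, -0.43 for contractile genes, -0.22 for integrins, 0.16 for interferon-stimulated genes, 0.40 for SASP genes, 0.27 for the inflammasome list and 0.20 for steroid enzymes. After this correction 2 interferon-stimulated genes and 0 SASP genes passed the broad rule by edgeR, in place of 5 and 2. The part of transcript length in the other results was not tested beyond this correction.

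In cells treated with 4OHT, whose vector and hairpin libraries are separate samples, most of the genes named from the largest changes moved alike. That comparison kept RIS_Vector replicate 2. A large share of all genes passed the broad rule in it, since adjusted p lay near unadjusted p (0.041 and 0.019 for ATF3, edgeR quasi-likelihood test). Passing there therefore does not set the named genes apart. The share of all genes with the same sign in both states is not given here, so a shared sign does not either. Of the 21 genes named from the largest changes (10 higher, 11 lower), 20 had the same sign there and passed the broad rule. RGS4 was the exception: it fell in growing cells (-1.0) and rose in RIS cells (0.46, adjusted p = 0.0058), and the difference between the states was -1.46 without replicate 4 (adjusted p = 0.0003) and -1.33 as labelled (adjusted p = 0.028; 0.16 with the replicate block). For the other 20, HMGA1 and HMGA2 the difference between states had an adjusted p of 0.83 or more, which does not show that the effects were equal. HMGA1 fell by 2.05 on the log2 scale in RIS cells (adjusted p = 0.00024). Among the list members named above, ALDH1A3 also differed: it rose in growing cells (0.58) and fell in RIS cells (-0.62, adjusted p = 0.0029), a difference of 1.20 without replicate 4 (adjusted p = 0.045; 0.26 with the replicate block) and 1.21 as labelled (adjusted p = 0.028; 0.16 with the block).

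**Figure D3:**
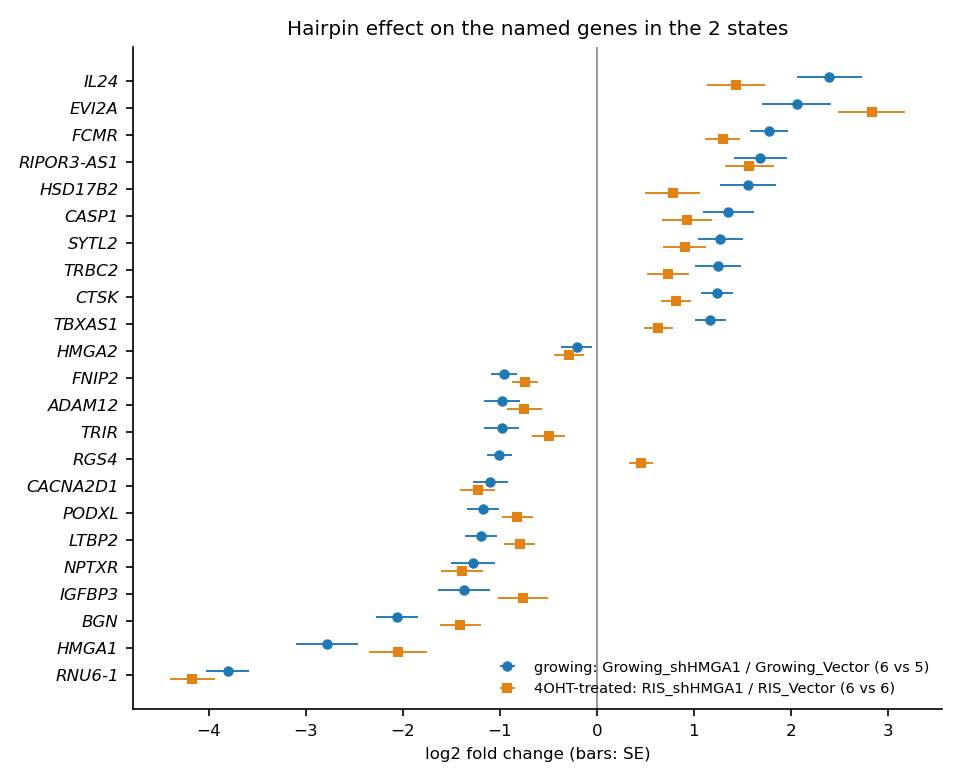
Log2 fold change of the hairpin over vector, with its SE as a bar, for HMGA1, HMGA2 and the 21 named genes in growing cells (6 against 5 libraries, without Growing_Vector replicate 4) and in 4OHT-treated cells (6 against 6). RGS4 lies at -1.0 in growing and 0.46 in 4OHT-treated cells, and the other named genes lie on the same side of 0 in both.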

How the data were processed

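RNA-seq libraries (TruSeq Stranded mRNA) were made from 24 samples. The authors mapped reads to hg19 with STAR 2.5.0b, trimmed adapters with cutadapt 1.10.0, counted reads on genes with Rsubread, and deposited raw counts for 25702 Entrez identifiers per sample. The gene annotation, Rsubread version and strand setting are not given in the sources used here. Symbols came from a RefSeq table by identifier (23696 matched), gene positions from GENCODE on GRCh37, and promoters and microRNAs from RefSeq (GRCh38.p14).

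Samples were grouped by their labels. Counts were filtered by filterByExpr, scaled by TMM and fitted with edgeR 4.0.16 (limma 3.58.1, R 4.3.3), quasi-likelihood, on group means of all 24 samples, and again on 23 samples without Growing_Vector replicate 4. P-values were adjusted by Benjamini-Hochberg over all genes tested. CPM used TMM library sizes, and log2 CPM a prior count of 2. Depth was 9146636 to 23103424 counts in growing libraries, and limits on a count of 0 cover counting error only. No pair of libraries agreed within sampling noise.

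The samples, gene lists and rules were chosen with earlier results of these data known. Named genes were HMGA1 and HMGA2, the 12 largest increases and decreases past the strict rule without replicate 4 that had a mean log2 CPM of 2 or more and kept 1 direction across the 5 pairs of equal number, the 4 members of each list with the smallest p, and broad calls of described lists. COL1A2, IL6, CXCL8, IL1A, IL1B, ACTA2, MYOCD, MKI67 and CDKN1A were added after their values were seen. COL1A1 was also named outside these rules. Not every list has all 4 of its members with the smallest p printed. Correlations of same-numbered samples, as deviations from group means over genes, were 0.33, 0.263, 0.228, 0.418, 0.289 and 0.542, all over the limit of 0.1, so the number was treated as a pairing found in the data. For hairpin replicates 3, 4 and 5 and vector replicates 1, 2, 3 and 5, a library of another number in the other group correlated more. The pairing is therefore partial. Alternatives were DESeq2 1.42.0, RLE scaling, other filters, the replicate block, growing samples only, voom with sample weights, leaving out each library, leaving out RIS_Vector replicate 2, and a length correction, the last added after the data were seen. On simulated counts for the comparison without replicate 4 (13336 genes, 200 changed), 68% of 2-fold and 96% of 4-fold changes were recovered with 1 false call. These counts were drawn independently, without the correlation of same-numbered samples or the length differences between libraries. They therefore do not give the error rate of calls in the real data.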

Additional observations from a re-analysis of the deposited data

Results flagged for a closer look

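In 13 of the 68 groups of 6 libraries tested, 1 library lay apart by Dixon's ratio (its gap over the group's range). Chance flags about 1 in 20 independent groups. These groups reuse the same libraries, and the named genes were chosen from the fit without replicate 4. That rate is therefore no yardstick for the flags, which describe replicate 4 and are not separate evidence. In 12 of the 13 the library apart was Growing_Vector replicate 4. The ratios were 0.779 for the share of counts in the 10 highest genes, 0.836 for IL24, 0.895 for FCMR, 0.683 for RIPOR3-AS1 and 0.83 for TRBC2, all highest in replicate 4. For list medians they were 0.749 for SASP genes and 0.832 for the inflammasome and IL1 axis, highest in replicate 4, and 0.718 for collagens, 0.829 for other matrix glycoproteins, 0.746 for contractile genes, 0.84 for integrins and 0.655 for interferon-stimulated genes, lowest in replicate 4. The other ratio was 0.796 for the total count, where Growing_Vector replicate 1 stood highest at 23103424.

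The hairpin effect on RGS4 differed between growing and 4OHT-treated cells, by -1.459 on the log2 scale in edgeR's interaction test (adjusted p = 0.0003 without replicate 4). RGS4 was lower in 5 of 5 same-numbered growing pairs, which the rule for naming genes required, so this adds no support.

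The hairpin effect on ALDH1A3 differed between the states as well, by 1.202 in the same test (adjusted p = 0.045; 0.26 with the replicate block).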

How the results depend on the processing

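HMGA1 fell under every alternative run (log2 fold change -2.95 to -2.63 as labelled, -3.03 to -2.65 without replicate 4) and missed the strict rule once, as labelled with length correction, growing samples only and the replicate block (-2.94, adjusted p = 0.016). HMGA1, HMGA2 and the genes of largest change kept their sign under every alternative run within either set of libraries. Their strict calls were less stable. As labelled, CASP1 lost its call in 15 of 25 alternatives, HSD17B2 in 16 and RGS4 in 17. Without replicate 4, CASP1 lost it in 12 of 24, ADAM12 in 13 and HSD17B2 in 10, while BGN, CTSK and RGS4 kept it in all 24. IL6, CXCL8, PTGS2 and MKI67, which passed in neither fit, turned from negative to positive as labelled with the replicate block, with the values in the report. Counts of calls moved. As labelled, strict calls numbered 99 by DESeq2, 23 with no filter on low counts, 5 with growing samples only, 2 with those and the replicate block, and 845 (598 higher, 247 lower) by voom. With length correction they were 9 in growing samples only and 0 with the block as well (1801 genes at an unadjusted p under 0.05). Broad calls as labelled were 321 by DESeq2, 175 with the replicate block, 30 in growing samples only and 22 with the block, 4580 by voom, and with length correction 204 with the block, 43 in growing samples only and 13 with both. Without replicate 4, strict calls were 221 by DESeq2, 299 in growing samples only (127 higher, 172 lower), 740 with the block, 1240 by voom (887 higher, 353 lower), and 348 with RIS_Vector replicate 2 also left out. With length correction they were 41 with the block, 215 in growing samples only and 323 with both. Broad calls without replicate 4 were 1061 by DESeq2, 257 with no filter, 2918 in growing samples only, 3690 with the block, 5471 by voom, 2625 without RIS_Vector replicate 2, and 1787 and 2073 with length correction in growing samples, without and with the block. Without replicate 4 the replicate block gave 382 broad calls. Of the 40 list members called without replicate 4, 34 kept their call with the block; those that lost it, and the named genes whose call the block changed, carry the blocked value in the report. It changed no other call among the list members and largest changes with a symbol that the report names.

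Leaving out 1 library gave 10 to 67 strict and 45 to 414 broad calls as labelled, and 25 to 102 strict and 77 to 1368 broad calls without replicate 4. The extremes came from Growing_Vector replicates 6 (77 broad calls when left out) and 3 (1368). Leaving out Growing_shHMGA1 replicate 4 gave 109. Among HMGA1, HMGA2 and the genes of largest change, 1 (RGS4) differed in effect between states as labelled, and 0 with the replicate block or without RIS_Vector replicate 2. The cause of these moves was not tested. At this depth genes near 1 CPM rest on few counts.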
